A study of Saccharomyces cerevisiae with 12 samples.

Results

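The 66 genes described here encode, by their names, the proteins of the mitochondrial ribosome of budding yeast. They were taken from the array's annotation by symbol alone, as genes called *MRPL*, *MRPS*, *MRP* or *RSM* followed by a number, and they are 66 of the 5449 genes measured. The rule uses no measured value, although it was set with earlier results of these data known. By general knowledge of these proteins, 37 genes encode large subunit proteins and 28 encode small subunit proteins. The remaining gene, *MRP8*, encodes a protein of unknown function that was first taken for a ribosomal protein from its sequence. It is counted with the others because the rule takes its name, and its values are given apart from theirs. The R64 annotation holds 67 symbols that fit the rule, and *MRP35* is not analysed here because no probe set was annotated to it.

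The mitochondrial ribosome translates the few messengers of the mitochondrial genome, which in yeast encode hydrophobic core subunits of the respiratory chain and of the ATP synthase. Nearly all of its own proteins are encoded in the nucleus, made by cytosolic ribosomes and imported into the matrix, where they assemble with ribosomal RNA of mitochondrial origin. Many of them descend from bacterial ribosomal proteins, and others are found only in mitochondria. In yeast the RNA-binding protein Puf3 binds messengers of many nuclear genes for mitochondrial proteins and promotes their decay during growth on glucose. Genes of the mitochondrial genome, among them the one for the ribosomal protein Var1, are not analysed here.

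WT cells were BY4741, a haploid laboratory strain of mating type a that lacks functional *HIS3*, *LEU2*, *MET15* and *URA3* genes, and *sus1*Δ cells were the same strain with a drug resistance cassette in place of *SUS1*. Sus1 is a subunit of the SAGA coactivator and of the TREX-2 messenger export complex. Both strains were grown in glucose medium without or with Congo red (CR) at 30 μg/mL, a chitin-binding dye that causes cell wall stress. The sample titles and the methods give 3 h of treatment and the deposited design gives 2 h, and the values cannot settle this. Each strain and condition had 3 arrays from independent samples, which makes 4 groups of 3 arrays. The methods divide cultures into an untreated and a treated part. Arrays of a strain with the same replicate number were taken as parts of the same culture, which the methods do not spell out. All mutant arrays represent 1 deletion strain, and no second *sus1*Δ isolate was measured.

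The values are log2 signals from GeneChip Yeast Genome 2.0 arrays after RMA, an algorithm that corrects background, equalizes the distributions of the arrays and summarizes the probes of a gene. A log2 difference of 1 is therefore a 2-fold change, relative to the other transcripts of the same array. Since RMA scales arrays toward a common distribution, a change in total messenger RNA per cell could not be seen. The *SUS1* probe set read between 7.90 and 8.66 on the 6 WT arrays and between 2.55 and 3.34 on the 6 *sus1*Δ arrays, as the labels require. *URA3*, *LEU2* and *MET17* (the locus of *met15*) stayed between 2.57 and 4.44 on all arrays. The *HIS3* probe set read 9.48 to 10.17, and the part of the gene that its probes cover was not known. The array medians lay between 9.08 and 9.16. The 5th percentile of all probe sets was 4.53 to 4.80 on WT arrays and 5.36 to 5.49 on *sus1*Δ arrays, so the dim end of the arrays differed between the strains. Each member was measured far above it, with a lowest reading of 7.93 for *RSM22* on a WT array with CR. The members with the lowest mean signals were *RSM22* with 8.24, *MRPL4* with 8.42 and *RSM25* with 8.64, and those with the highest were *MRP8* with 11.35, *MRPS12* with 10.94 and *RSM10* with 10.62. These signals are given only as distances from the dim end, since signals of different probe sets are not on a common scale.

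The members moved little between arrays. Their median signal was 9.93, 9.90 and 9.76 on the untreated WT arrays of cultures 1 to 3, and 9.81, 9.75 and 9.70 on the WT arrays with CR. In *sus1*Δ cells it was 9.74, 9.78 and 9.76 without CR and 9.75, 9.75 and 9.68 with CR. The first 2 untreated WT arrays thus had the highest medians, and the third overlapped with the other groups. Within the untreated WT group, 54 of 66 members were above their group mean on array 1, 30 on array 2 and 13 on array 3, so array 1 was higher and array 3 lower over most members. The median SD of a member over the 3 arrays of a group was 0.134 in WT cells, 0.107 in WT cells with CR, 0.0692 in *sus1*Δ cells and 0.0730 in *sus1*Δ cells with CR. The corresponding values over all genes were 0.148, 0.148, 0.0712 and 0.0784. WT arrays were therefore more scattered than mutant arrays, whereas the test used 1 variance per gene for all groups.

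**Figure D1:**
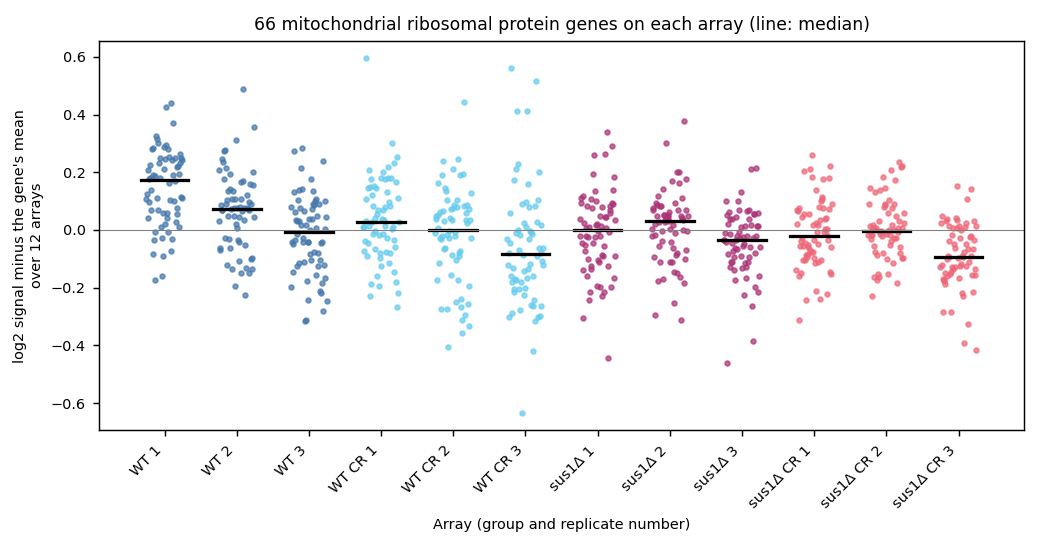
Log2 signal of each of the 66 genes on each of the 12 arrays, as the difference from the mean of that gene over all arrays. Each point is 1 gene and the black line is the median of the 66 genes. Most genes lie within a narrow band on every array, and the untreated WT array of culture 1 stands highest.

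The first comparison asked how the members responded to the cell wall stress in WT cells. Of the 66 members, 1 rose and 1 fell with CR at an adjusted p under 0.05 in limma, or 3.03%, whereas 18.4% of all 5449 genes passed the same test. By direction, 9.40% of all genes rose and 9.01% fell. Among the 4007 genes whose mean signal was at least that of the dimmest member, 19.7% passed. The members' log2 changes ran from -0.42 to 0.37 with a median of -0.10, against a median of -0.02 over all genes, and 49 of the 66 members lay below 0 (74.2%, against 54.2% of all genes). The 95% interval of the change lay within 2-fold in either direction for all 66 members. It lay within 1.5-fold for 65 of them, or 98.5%, whereas this was so for 73.9% of all genes. When only the WT arrays were fitted, which uses the larger spread of WT cells, the numbers were 66 and 60.

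*MRP8* was the member that rose. Its log2 signal was 11.52, 11.42 and 11.24 on the untreated WT arrays and 11.65, 11.79 and 11.86 on those with CR. All 3 treated arrays were above all untreated ones. The log2 change was 0.37 (SE 0.09, adjusted p = 0.0170), a ratio of 1.30. Culture by culture the change was 0.13, 0.37 and 0.62, so it was uneven between the cultures. The call was lost without the untreated or the treated array of culture 3, with adjusted p of 0.0545 and 0.0509, and without both of them, where the change was 0.25 (adjusted p = 0.110).

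*MRPL49*, a large subunit protein with the bacterial counterpart L21, was the member that fell. It read 9.83, 9.89 and 9.71 without CR and 9.56, 9.53 and 9.49 with CR in WT cells. Again the groups did not overlap, with all treated arrays below the untreated ones. The change was -0.28 (SE 0.07, adjusted p = 0.0213). This call was lost without untreated array 1 (adjusted p = 0.0505), without untreated array 2 (0.0664) and without treated array 3 (0.0528), and both calls were lost in the fit of the WT arrays alone, with adjusted p of 0.111 for *MRP8* and 0.137 for *MRPL49*.

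The other members with large changes did not pass the test. The largest decrease was that of *MRPS17*, the counterpart of S17, which read 10.05, 10.10 and 9.71 without and 9.74, 9.52 and 9.35 with CR (change -0.42, SE 0.14, adjusted p = 0.0596). Array 3 of the untreated cells fell within the range of the treated ones. *MRPL50*, a counterpart of L9, read 10.81, 10.39 and 10.49 without and 10.32, 10.17 and 10.28 with CR (-0.30, adjusted p = 0.0660), with no overlap. *RSM26*, a mitochondria-specific small subunit protein, changed by -0.29 with an adjusted p of 0.0757. In the other direction *RSM19*, the counterpart of S19, read 9.98, 9.86 and 9.87 without and 10.16, 10.05 and 10.20 with CR. All its treated arrays were higher, and the change was 0.23 (adjusted p = 0.0752). *MRP20* and *MRPS18* followed with 0.21 and 0.12 at adjusted p of 0.298 and 0.337. Over all members, the 3 treated and the 3 untreated arrays did not overlap in 12 cases, 2 of them higher and 10 lower with CR, beside 12.8% of all genes apart in the higher and 14.7% in the lower direction (27.5% together).

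Arrays of a strain with the same replicate number were taken as parts of 1 divided culture, so the response could also be read within cultures. The median change of the 66 members was -0.12, -0.08 and -0.08 in WT cultures 1 to 3, with 50, 48 and 44 members lower, whereas the median over all genes was 0.02, 0.00 and -0.09. In cultures 1 and 2 the members' median was thus lower than that of all genes, and in culture 3 the medians were about the same. In all 3 WT cultures 29 members were lower, or 43.9%, and 3 were higher, or 4.55%. The same count over all genes gave 30% and 24.7%. With the culture as a block in the fit, 2 members rose (*MRP8* and *RSM19*) and 9 fell: *MRP13*, *MRPL37*, *MRPL49*, *MRPL50*, *MRPL6*, *MRPL8*, *MRPS17*, *MRPS8* and *RSM26*. In that fit 14.9% of all genes rose and 15% fell. The 9 of 66 members that fell are a share near that background, and the 2 that rose are a share below it.

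In *sus1*Δ cells none of the 66 members passed the test for CR in limma, where 1.54% of all genes did. That fit pools the variances of both strains. When only the *sus1*Δ arrays were fitted, which uses their smaller spread, again no member passed, and 6.28% of all genes did. The fit of the WT arrays alone gave 5.96%, so the shares of the strains were then close. In the fit of all arrays, 1 member was higher and 2 were lower at an unadjusted p under 0.05, or 4.55%, compared with 10.2% of all genes. The test named in the methods, without adjustment, gave 2 higher and 2 lower members, where 19.7% of all genes passed, and none after adjustment, where 1.39% did. By direction 1.39% of all genes rose and 0.147% fell in limma. The treated and untreated arrays did not overlap for 3 higher and 3 lower members, whereas this was so for 11.2% and 16.9% of all genes (28.1% together). The changes ran from -0.22 for *MRPS28* to 0.29 for *MRP8*, and their median was -0.01, against -0.03 for all genes. All 66 intervals lay within 1.5-fold, compared with 87.5% of all genes. *MRP8* read 10.90, 11.04 and 10.96 without and 11.39, 11.16 and 11.23 with CR in *sus1*Δ cells. All treated arrays were higher than all untreated ones, and the change of 0.29 had an adjusted p of 0.241. *RSM19* came next with 0.14 (adjusted p = 0.641), *MRPL27* with 0.13 (0.708) and *RSM7* with 0.12 (0.875). After *MRPS28* (adjusted p = 0.464), the lower values were -0.20 for *MRPS8* (0.564), -0.19 for *MRPL6* (0.478) and -0.13 for *RSM24* (0.719). Within the *sus1*Δ cultures the median change of the members was 0.00, 0.01 and -0.03, with 34, 31 and 40 of 66 lower.

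**Figure D2:**
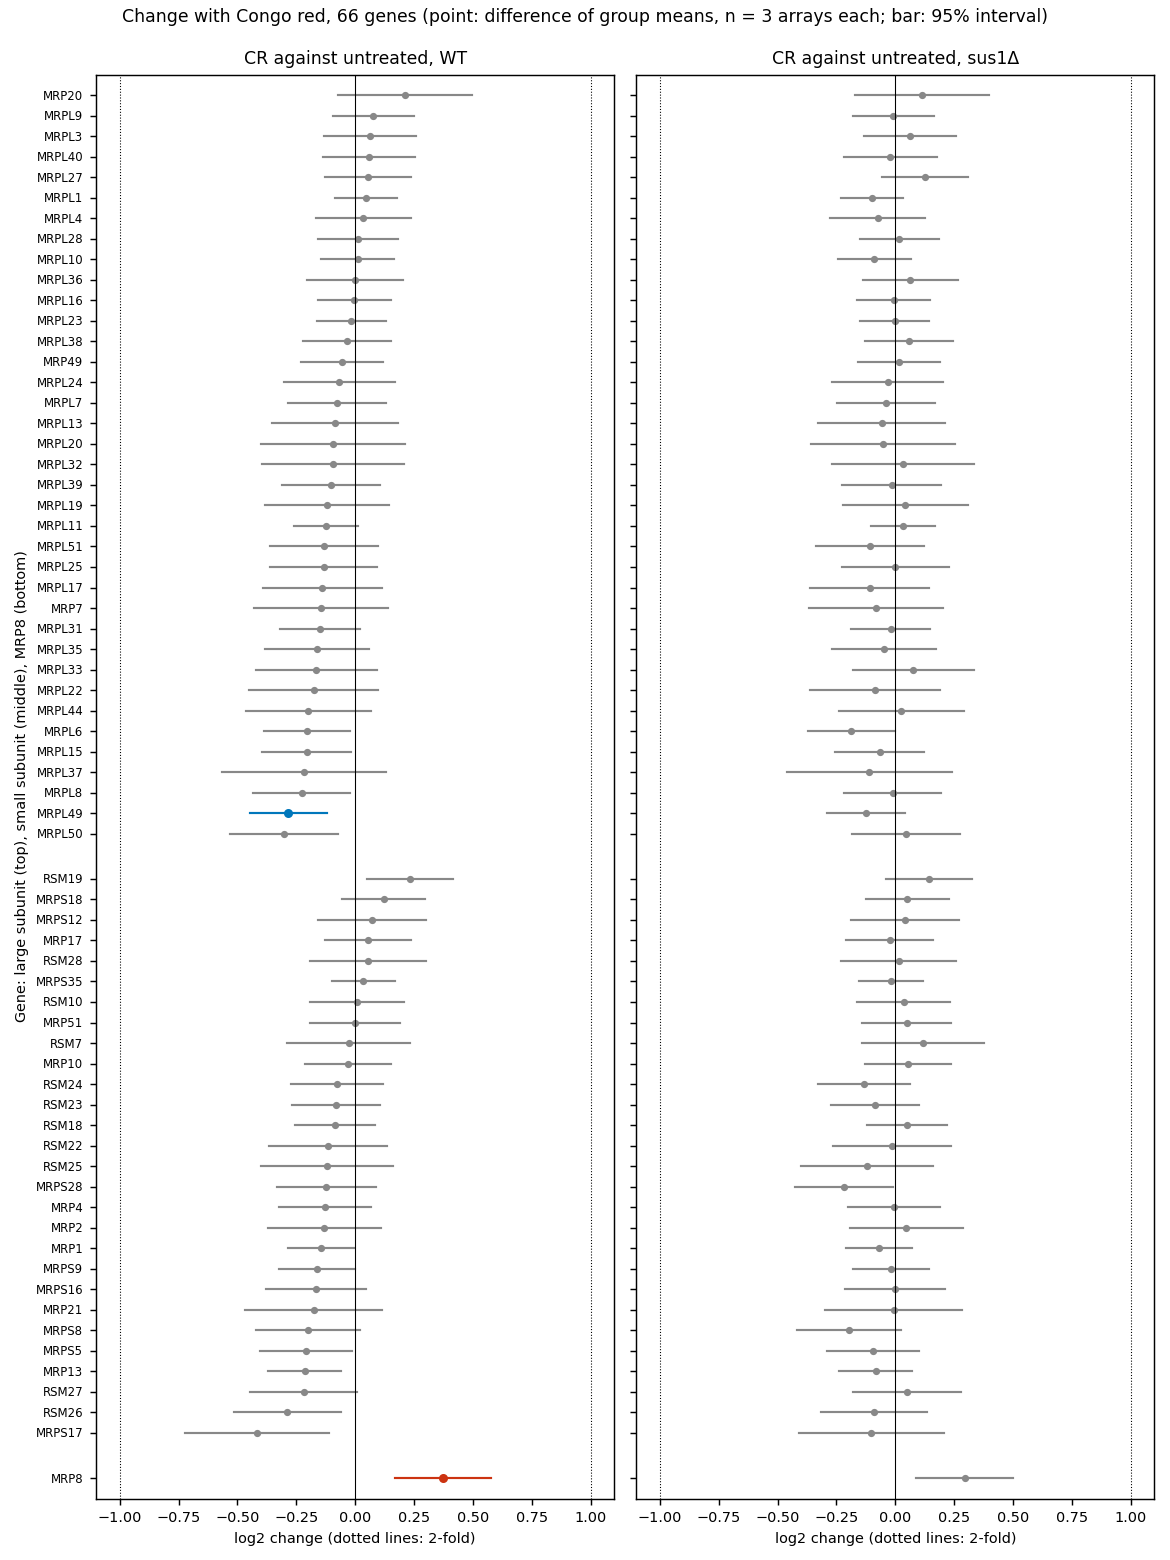
Log2 change with CR in WT cells (left) and in *sus1*Δ cells (right) for the 66 genes, by subunit and in the order of the WT change. Points are differences of group means over 3 arrays each and bars are 95% intervals, with red for *MRP8* (0.37) and blue for *MRPL49* (-0.28), which passed in WT cells. All bars stay inside the dotted 2-fold lines.

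Whether the CR response itself differed between the strains was tested as an interaction, the response of *sus1*Δ cells minus that of WT cells. No member passed in limma, and 0.0734% of all genes did. At an unadjusted p under 0.05 there was 1 member, *MRPL50*, or 1.52%, beside 8.63% of all genes. No alternative fit gave a member at an adjusted p under 0.05. The median over the members was 0.07, against 0.00 for all genes, with 47 of 66 members above 0 (71.2%, against 49.1% of all genes). The widest 95% bound was 0.75 on the log2 scale, so all 66 intervals lay within 2-fold. Within 1.5-fold lay 60, or 90.9%, compared with 69.6% of all genes. *MRPL50* had the largest difference, 0.35 (SE 0.15, adjusted p = 0.540). Its change with CR was -0.48, -0.22 and -0.21 in the WT cultures and 0.11, 0.02 and 0.01 in the *sus1*Δ cultures. Only 1 other member, *MRPL19*, had opposite signs in all cultures of the strains, with changes from -0.16 to -0.09 in WT and from 0.01 to 0.09 in *sus1*Δ cultures (adjusted p = 0.907), and 1.93% of all genes had such a pattern. *MRPS17* followed with 0.32, *RSM27* with 0.27 and *MRPL33* with 0.24, at adjusted p of 0.745, 0.686 and 0.778. The lowest values were -0.15 for *MRPL1*, -0.11 for *MRPL4*, -0.10 for *MRPL10* and -0.10 for *MRP20*, at adjusted p of 0.716 to 0.963.

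As a description without a test, the CR responses of WT and *sus1*Δ cells, which share no array, had a Pearson correlation of 0.58 and a Spearman correlation of 0.45 across the 66 members. Without *MRP8* these were 0.49 and 0.43, and over all genes 0.82 and 0.68. Genes are not independent replicates, and the methods do not say which arrays were processed together.

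The second question was how the members differed between *sus1*Δ and WT cells. Without CR, 1 member was higher and 9 were lower in *sus1*Δ cells at an adjusted p under 0.05, or 15.2%, compared with 21.4% of all genes. By direction 14.3% of all genes were higher and 7.08% lower. Among genes at least as bright as the dimmest member the shares were 8.98% and 8.29%. The members' differences ran from -0.54 to 0.42 with a median of -0.06, against 0.03 for all genes. Of the 66 members, 44 were below 0 (66.7%, against 44% of all genes). With CR, 3 members were higher and 9 lower, or 18.2%, compared with 27.7% of all genes (16.8% higher and 10.9% lower). Among genes at least as bright as the dimmest member, 13.7% were higher and 12.4% lower with CR. The members' range with CR was -0.64 to 0.40 and the median -0.01, against 0.03 for all genes. All 66 intervals lay within 2-fold in both comparisons, and 60 and 61 of them lay within 1.5-fold, compared with 74.3% and 70.1% of all genes. The strains did not overlap for 3 higher and 19 lower members without CR, beside 25.3% and 16.4% of all genes (41.7% together). With CR this was so for 7 higher and 13 lower members, beside 26.0% and 19.3% of all genes (45.3% together). No member passed with a 2-fold change in any of the 5 comparisons. Of all genes, 1.69% did with CR in WT cells and 0.496% with CR in *sus1*Δ cells, 2.53% and 2.57% between the strains without and with CR, and 0.0551% for the interaction.

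In 7 cases a member was lower in *sus1*Δ cells both without and with CR, or 77.8% of each list of 9. They were *MRP8*, the large subunit genes *MRP20*, *MRPL31*, *MRPL36*, *MRPL16* and *MRP49*, and the small subunit gene *MRP10*. The untreated and the treated part of a culture are not independent, so the second comparison is not a repeat of the first. The same overlap over all genes is not given here. Across genes, the strain differences without and with CR had a Pearson correlation of 0.85 over the members and 0.85 over all genes. The likeness of both conditions was therefore not particular to the members. The higher members were *MRPS28* in both comparisons and *RSM27* and *MRPS8* with CR.

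*MRP20*, the counterpart of L23 at the exit of the polypeptide tunnel, had the lowest values. It read 9.08, 8.93 and 9.13 in untreated WT and 8.55, 8.56 and 8.40 in untreated *sus1*Δ cells. With CR it read 9.45, 8.91 and 9.42 in WT and 8.54, 8.63 and 8.68 in *sus1*Δ cells. Every *sus1*Δ array was below every WT array. The difference was -0.54 without CR (SE 0.13, adjusted p = 0.0139), a ratio of 0.687, and -0.64 with CR (adjusted p = 0.00448), a ratio of 0.641. The untreated call was lost without *sus1*Δ array 3 (adjusted p = 0.0547), and the treated call held without any of the 12 arrays, with a highest adjusted p of 0.0210.

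*MRPL31*, a mitochondria-specific large subunit protein, had the lowest p-value of the untreated comparison. Its signal was 10.40, 10.22 and 10.37 in WT and 9.95, 9.91 and 9.91 in *sus1*Δ cells. With CR it was 10.23, 10.22 and 10.08 in WT and 9.99, 9.92 and 9.80 in *sus1*Δ cells. The strains did not overlap in either condition. The difference was -0.41 (SE 0.08, adjusted p = 0.00426) without CR, a call that held without any 1 array, and -0.28 (adjusted p = 0.0210) with CR. *MRPL36*, a counterpart of L31, read 10.65, 10.52 and 10.49 in WT and 10.28, 10.24 and 10.14 in *sus1*Δ cells without CR. Its differences were -0.34 (adjusted p = 0.0248) without and -0.27 (adjusted p = 0.0470) with CR, and again no array of 1 strain reached into the other.

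*MRP49*, a mitochondria-specific large subunit protein, read 10.27, 10.17 and 10.12 in untreated WT and 9.85, 9.95 and 9.80 in untreated *sus1*Δ cells. The differences were -0.32 (adjusted p = 0.0160) without and -0.25 (adjusted p = 0.0366) with CR. *MRPL16*, the counterpart of L16, read 10.13, 9.96 and 9.92 against 9.78, 9.77 and 9.75. Here the 3 mutant arrays lay close together and below all WT arrays, with a difference of -0.24 in both conditions (adjusted p = 0.0341 and 0.0262). It lies outside the 8 members that the naming rule takes and was added after its values were seen. *MRPL40*, the counterpart of L24, read 9.14, 8.995 and 9.11 in WT and 8.69, 8.83 and 8.75 in *sus1*Δ cells with CR, apart in all arrays, and differed by -0.33 (adjusted p = 0.0203). Without CR its difference was -0.25 (adjusted p = 0.0723), with overlap of single arrays.

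Among the small subunit genes, *MRP10*, which encodes a mitochondria-specific protein with twin cysteine motifs, read 10.45, 10.37 and 10.29 in WT and 9.97, 10.06 and 10.03 in *sus1*Δ cells without CR. It differed by -0.35 (SE 0.08, adjusted p = 0.0139) without and -0.27 (adjusted p = 0.0344) with CR, with no overlap. *RSM18*, the counterpart of S18, read 10.62, 10.45 and 10.47 against 10.25, 10.08 and 10.21 in untreated cells. Its difference was -0.33 (adjusted p = 0.0123), and -0.19 (adjusted p = 0.0826) with CR. *MRPS17* read 9.56, 9.53 and 9.50 in untreated *sus1*Δ cells, below the 3 WT arrays given above, a difference of -0.43 (SE 0.14, adjusted p = 0.0491). With CR, where the WT signal was lower, it was -0.11 (adjusted p = 0.581). *RSM28*, a mitochondria-specific protein, read 9.51, 9.29 and 9.73 in WT and 9.104, 9.16 and 9.19 in *sus1*Δ cells with CR, a difference of -0.36 (adjusted p = 0.0331), and differed by -0.32 (adjusted p = 0.0622) without CR.

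The members that were higher in *sus1*Δ cells encode small subunit proteins. *MRPS28*, the counterpart of S15, read 9.12, 9.01 and 8.83 in WT and 9.40, 9.48 and 9.32 in *sus1*Δ cells without CR. With CR it read 8.93, 8.85 and 8.81 in WT and 9.18, 9.33 and 9.04 in *sus1*Δ cells. No WT array reached the lowest *sus1*Δ array in either condition. The differences were 0.42 (SE 0.10, adjusted p = 0.0112), a ratio of 1.33, and 0.32 (adjusted p = 0.0279). *RSM27*, a mitochondria-specific protein, read 8.75, 8.82 and 8.75 in WT and 9.24, 9.24 and 9.05 in *sus1*Δ cells with CR, a difference of 0.40 (SE 0.10, adjusted p = 0.0156). Without CR it differed by 0.13 (adjusted p = 0.392), and WT array 1 with 9.25 lay above all *sus1*Δ arrays. *MRPS8*, the counterpart of S8, was higher by 0.30 in both conditions, with an adjusted p of 0.0524 without and 0.0427 with CR. *MRPL37* with 0.28 and *MRPS12* with 0.23 did not pass without CR (adjusted p = 0.240 and 0.145), and *MRPL37* with 0.38 did not pass with CR (adjusted p = 0.0936).

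*MRP8* was lower in *sus1*Δ cells in both conditions. From the signals given above, the difference was -0.43 (SE 0.09, adjusted p = 0.00914) without and -0.51 (adjusted p = 0.00280) with CR, ratios of 0.743 and 0.704. The strains did not overlap, and both calls held without any of the 12 arrays, with highest adjusted p of 0.0407 and 0.0156. The order of its group means was WT with CR, WT, *sus1*Δ with CR and *sus1*Δ, with 11.77, 11.39, 11.26 and 10.97. The neighbors WT and *sus1*Δ with CR in this order overlapped, since the lowest untreated WT array read 11.24 and the highest treated *sus1*Δ array 11.39.

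The strength of the other calls differed. Leaving out 1 array ended the untreated calls of *MRP10* (without *sus1*Δ array 1, adjusted p = 0.0553), *MRPS28* (without *sus1*Δ array 2, 0.0546) and *RSM18* (without *sus1*Δ array 2, 0.0619). Those of *MRP49*, *MRPL36*, *MRPL16* and *MRPS17* were lost in 3, 4, 6 and 7 of the 12 fits that leave out 1 array, with adjusted p up to 0.0641, 0.0893, 0.104 and 0.139. With CR the calls of *RSM27*, *MRPL40*, *MRPL31*, *MRPL16*, *MRPS28*, *RSM28*, *MRP10*, *MRP49*, *MRPS8* and *MRPL36* were lost in 2 to 9 of these fits, with adjusted p up to 0.173, and each of the 6 arrays with CR ended at least 1 of them when left out. No sign changed in any of them. When both arrays of WT culture 3 were left out, 15 members instead of 9 were lower without CR, while the number over all genes rose from 386 to 567.

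**Figure D3:**
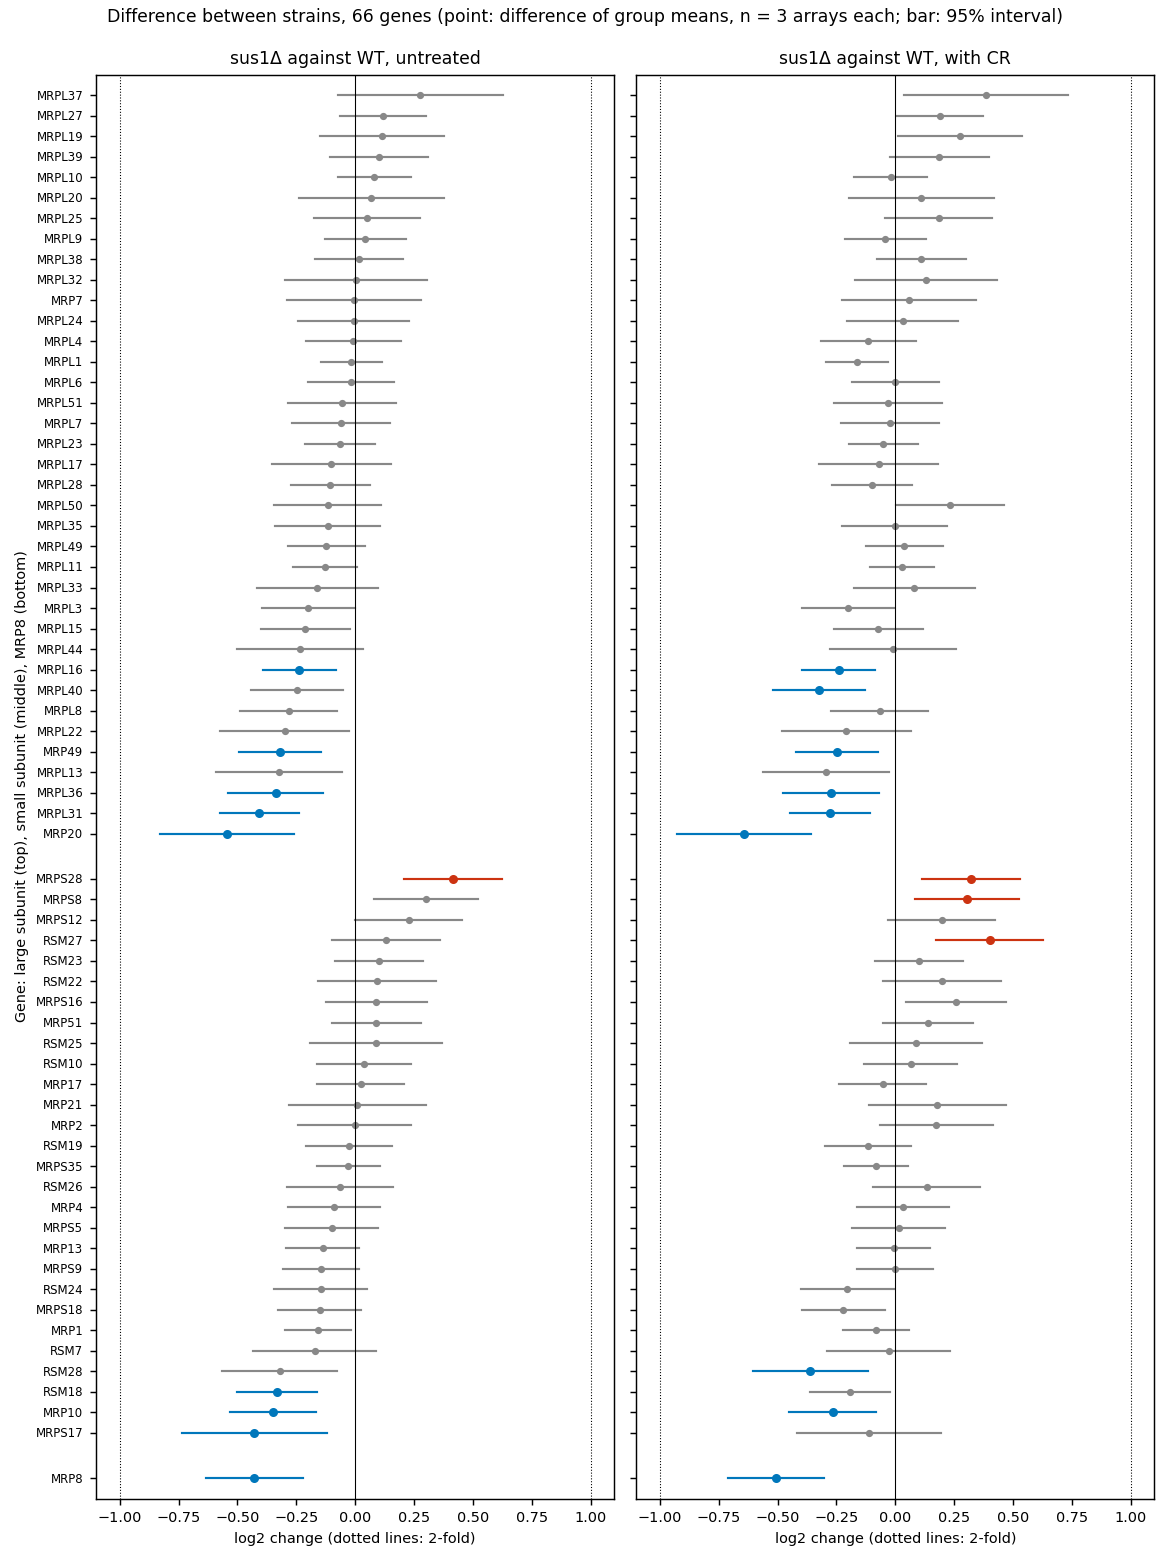
Log2 difference between *sus1*Δ and WT cells without CR (left) and with CR (right) for the 66 genes, by subunit and in the order of the untreated difference. Points are differences of group means over 3 arrays each, bars are 95% intervals, and blue (lower) and red (higher) mark an adjusted p under 0.05. *MRP20* is lowest at -0.54 and -0.64, *MRPS28* is higher in both panels, and no bar crosses the dotted 2-fold lines.

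**Figure D4:**
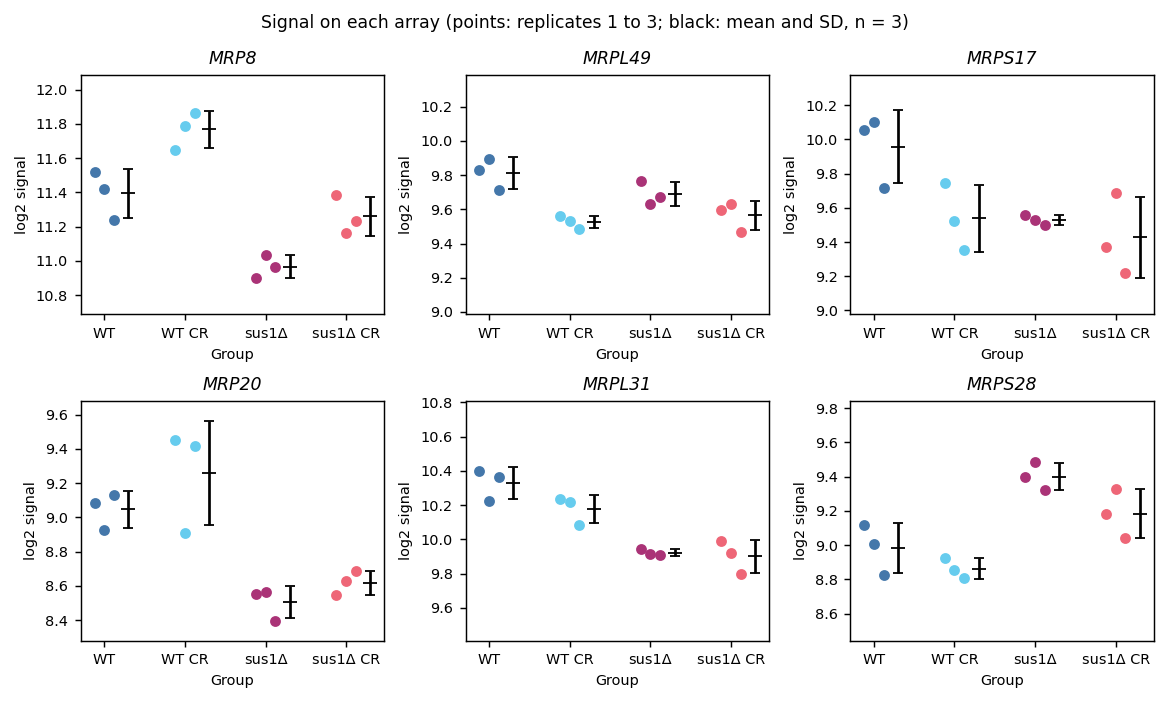
Log2 signal of 6 genes on each array, with points for replicates 1 to 3 and the mean with its SD (n = 3) in black. Each panel spans the same range on the log2 scale. *MRP8* is raised with CR in WT cells, has a higher mean with CR in *sus1*Δ cells that did not pass the test, and is lower in *sus1*Δ cells, *MRP20* and *MRPL31* are lower and *MRPS28* is higher in *sus1*Δ cells, and *MRPL49* and *MRPS17* have lower means in WT cells with CR.

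By subunit, the 37 large subunit genes had a median difference between the strains of -0.10 without and -0.02 with CR, with 5 and 6 lower and none higher, or 13.5% and 16.2%. The 28 small subunit genes had medians of -0.03 and 0.02, with 1 higher and 3 lower without CR and 3 higher and 2 lower with CR, or 14.3% and 17.9%. Over all genes 21.4% without and 27.7% with CR passed in both directions together, with 7.08% and 10.9% lower and 14.3% and 16.8% higher. The large subunit calls, all lower, were thus above the shares of all genes that were lower. They were below the shares for both directions together. Of the small subunit genes 10.7% and 7.14% were lower and 3.57% and 10.7% higher. With CR treatment of WT cells the medians were -0.10 for the large and -0.12 for the small subunit, and of *sus1*Δ cells -0.02 and -0.01. The 40 members with a bacterial counterpart had strain differences with a median of -0.02 and 0.01, and 6 of them, or 15%, passed in each condition. For the 25 mitochondria-specific members the medians were -0.11 and -0.03, with 3 and 5 calls, or 12% and 20%. The difference between these classes was not tested.

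Proteins around the exit of the polypeptide tunnel, where the new chain leaves the ribosome toward the inner membrane, were listed after the values had been seen, so their values are a description. Of these 7 genes (*MRP20*, *MRPL4*, *MRPL22*, *MRPL40*, *MRPL3*, *MRPL13* and *MRPL27*), 6 had lower means in *sus1*Δ cells in each condition, with medians of -0.25 and -0.21. Only *MRP20* passed the test without CR, and *MRP20* and *MRPL40* passed with CR. These calls were all lower, 14.3% and 28.6% of the 7 genes, beside 7.08% and 10.9% of all genes that were lower. In both directions together 21.4% and 27.7% of all genes passed. At an unadjusted p under 0.05 in limma, 5 of the 7 were lower without CR, and 4 were lower and 1 higher with CR. This is 71.4% in each condition, beside 35.1% and 40.2% of all genes, and a list chosen after the values were seen gives no test. *MRPL13* and *MRPL22* differed by -0.32 and -0.30 without CR at adjusted p of 0.0831 and 0.112, *MRPL3* by -0.20 and *MRPL4* by -0.01. *MRPL27* differed by 0.12 in the other direction.

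The members lie on 14 chromosomes of the R64 assembly, with 12 on chromosome IV, 9 on XIV and 8 on XI. A single pair, *MRPS12* and *RSM19* on chromosome XIV, are neighbors, and they are read from the same strand. With CR in WT cells *MRPS12*, the counterpart of S12, changed by 0.07 (adjusted p = 0.690) and *RSM19* by 0.23, as given above. Genes next to the members with the clearest strain differences did not all go the same way. *RPB7*, which encodes an RNA polymerase II subunit and is divergent to *MRP20*, was lower at -0.23 in untreated *sus1*Δ cells (adjusted p = 0.0384). *PDR15*, a transporter gene on the other side of *MRP20* and on the same strand, was higher by 1.08 without and 1.34 with CR (adjusted p = 0.00122 and 2.70e-04). Next to *MRP8*, *LTV1*, which encodes a factor for export of the cytosolic small subunit, was higher by 0.74 and 0.80 (adjusted p = 0.00983 and 0.00510). *HSK3*, a kinetochore gene next to *MRPL31* on the same strand, was lower at -0.55 and -0.39.

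Other genes around mitochondrial translation were set beside the members from lists drawn up from general knowledge, with earlier results of these data known. Of 14 mitochondrial ribosomal proteins that carry other names, 13 were measured, and 6 of them passed between the strains without CR, with 1 higher and 5 lower, or 46.2%, beside 21.4% of all genes. With CR 2 were higher and 6 lower, or 61.5%, beside 27.7% of all genes. Those with the largest differences were *YML6*, the counterpart of L4, at -0.73 without (adjusted p = 0.00167) and -0.58 with CR, *FYV4*, a small subunit protein, at -0.62 without CR, *PET123*, another small subunit protein, at -0.52 and -0.44, and *NAM9*, the counterpart of S4, at -0.49 with CR. *YML6* averaged 8.99 in untreated WT and 8.26 in untreated *sus1*Δ cells. In the response to CR none of the 13 passed in either strain, and in limma at an unadjusted p under 0.05 there were 2 in WT and 0 in *sus1*Δ cells.

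Of 12 genes for mitochondrial translation factors and transfer RNA modification, 6 were higher in untreated *sus1*Δ cells and none lower, or 50%, beside 21.4% of all genes. With CR 3 were higher and 1 lower, or 33.3%, beside 27.7%. The lower one was the ribosome recycling factor gene *RRF1* at -0.51 (adjusted p = 4.01e-04). *FMT1*, which formylates the initiator transfer RNA, passed without CR (adjusted p = 4.46e-05) with a mean signal of 6.58 in *sus1*Δ cells. In WT cells it read 3.71, below the 5th percentile of those arrays, so no size is given for the difference. The initiation factor gene *IFM1* was higher by 0.80, from 7.36 to 8.16, and the elongation factor gene *MEF2* by 0.46. The dim end of the arrays was itself higher in *sus1*Δ cells, and its part in the *FMT1* call was not tested. Of 12 genes for assembly and maturation of the ribosome, *YTA12*, part of the protease that processes Mrpl32, was higher by 0.64 without and 0.59 with CR, and *MRX8* was lower at -0.33 with CR. *MRPL32* itself differed by 0.00 and 0.13 (adjusted p = 0.989 and 0.505).

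Among 20 genes listed around the translation of mitochondrial messengers, *ATP22* rose with CR in WT cells by 1.01 (adjusted p = 2.63e-04) and *PET309* fell by 0.30 (adjusted p = 0.0147). Between the strains 3 of the 20 were higher and 1 lower without CR, and 3 higher and 2 lower with CR. These are 20% and 25%, beside 21.4% and 27.7% of all genes. *PET122* had the largest differences, 1.60 and 1.01. Of 16 mitochondrial aminoacyl-tRNA synthetase genes, *SLM5* rose with CR in WT cells by 0.58 (adjusted p = 0.00198), and it was lower in *sus1*Δ cells with CR by -0.57 (adjusted p = 0.00194). *MSW1* was lower at -0.26 without CR. Of 8 genes for membrane insertion and ribosome receptors, none passed without CR, and with CR *PNT1* was higher by 0.29 and *YLH47* lower at -0.29.

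Of 11 regulators of respiratory genes, 2 were higher and 1 lower in *sus1*Δ cells without CR, or 27.3%, beside 21.4% of all genes. With CR 2 were higher and 2 lower, or 36.4%, beside 27.7%. *PUF3* was lower in *sus1*Δ cells by -0.98 without (SE 0.20, adjusted p = 0.00655) and -0.87 with CR (adjusted p = 0.00880). Its mean signal was 8.32 in untreated WT and 7.35 in untreated *sus1*Δ cells. *RTG1*, a factor of the retrograde response, fell with CR in WT cells by 0.73 (adjusted p = 0.00610) and was higher in *sus1*Δ cells by 1.25 and 1.87. *HAP4*, which encodes the activating subunit of the HAP complex, rose in WT cells with CR by 0.49 (adjusted p = 0.0299) and was lower at -0.55 in *sus1*Δ cells with CR (adjusted p = 0.0145). Of 10 genes for maintenance and transcription of the mitochondrial genome, 3 were higher and 1 lower in *sus1*Δ cells without CR. With CR 2 were higher and 2 lower, so 40% passed in each condition, beside 21.4% and 27.7% of all genes. *SLS1* was higher in *sus1*Δ cells by 1.15 and 1.36, *MTF1* was higher by 0.42 in both conditions, and *ABF2*, which packs mitochondrial DNA, was lower at -0.38 and -0.52. Among 22 genes of protein import, *PAM18* fell by 0.42 with CR in WT cells. Between the strains 1 was higher and 5 lower without CR and 1 higher and 1 lower with CR. These are 27.3% and 9.09%, beside 21.4% and 27.7% of all genes. *OCT1* was higher by 0.62 and 0.42.

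Nuclear genes for the respiratory chain and the ATP synthase, whose products work with those that the mitochondrial ribosome makes, had a median change with CR in WT cells of 0.10, with 33 of 37 above 0. The members' median in that comparison was -0.10, with 17 of 66 above 0. Of the 37 genes 2 passed, *SDH4* with 0.47 and *ATP3* with 0.34 (adjusted p = 0.0283 and 0.0359), or 5.41%, beside 18.4% of all genes. Between the strains their medians were -0.17 and -0.18, with 3 and 4 lower and none higher. These are 8.11% and 10.8%, beside 7.08% and 10.9% of all genes lower and 21.4% and 27.7% in both directions together. The 122 cytosolic ribosomal protein genes had a median of -0.07 with CR in WT cells, with 6 lower, or 4.92%, and of -0.12 and -0.07 between the strains, with 28 and 12 lower and none higher, or 23% and 9.84%. Over all genes 7.08% and 10.9% were lower between the strains. The genes for assembly of the cytosolic ribosome moved much further. Of 63 genes, 51 fell with CR in WT cells, or 81.0%, with a median of -0.47, compared with 9.01% of all genes and 1.52% of the members. In *sus1*Δ cells with CR their median was -0.20 and none passed in limma, where 0.147% of all genes fell. At an unadjusted p under 0.05, 23 of the 63 were lower, or 36.5%, beside 269 of all 5449 genes. With CR 37 of the 63, or 58.7%, were higher in *sus1*Δ than in WT cells, beside 16.8% of all genes, with a median of 0.42, against a median of -0.01 of the members. No test of the difference between lists was made.

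**Figure D5:**
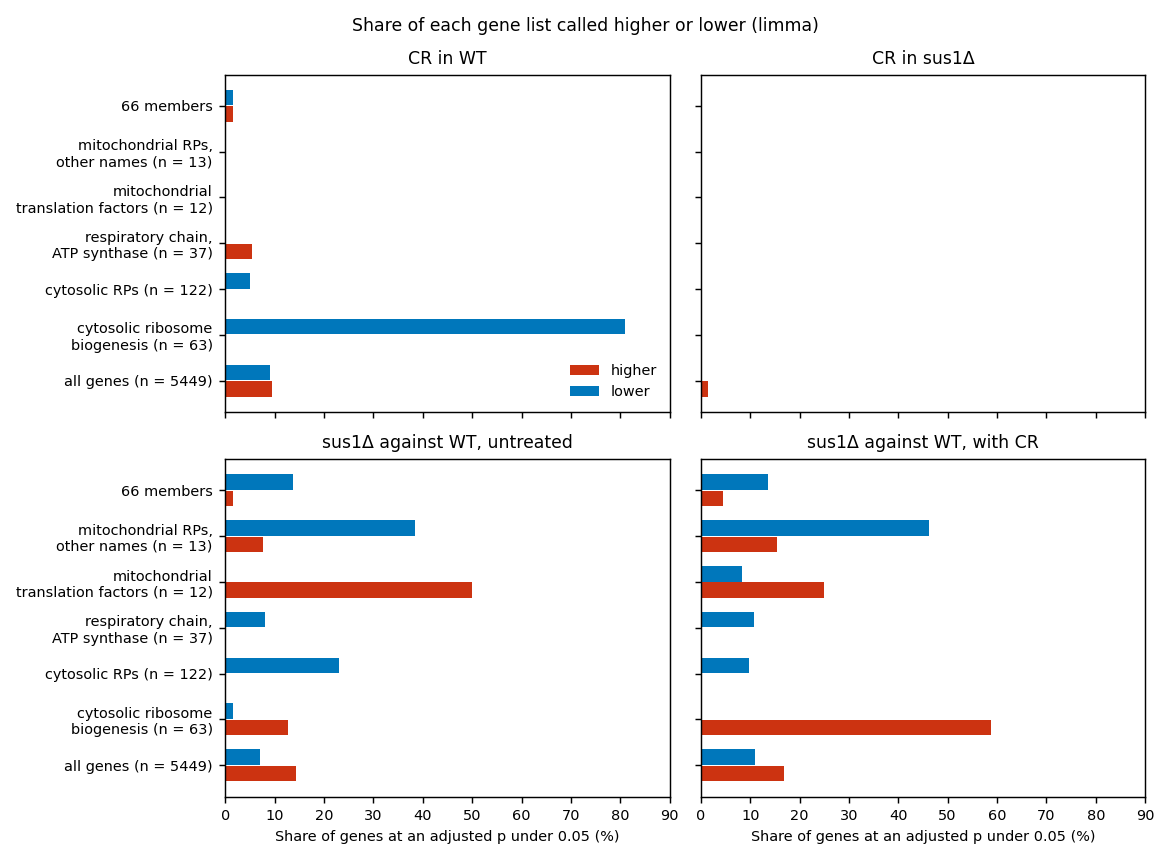
Share of each gene list, in percent, that was higher (red) or lower (blue) at an adjusted p under 0.05 in limma, for 4 comparisons with 3 arrays per group. The members stand at 1.52% in each direction with CR in WT cells, genes for assembly of the cytosolic ribosome at 81.0% lower, and in *sus1*Δ cells with CR only a small share of all genes passed. RPs stands for ribosomal proteins.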

How the data were processed

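Total RNA of 12 samples was hybridized by the authors to 1 array each. The deposited log2 values were made by the authors with RMA (background correction, quantile normalization, summary per probe set), whose version is not given in the sources used here. Nothing further was done to these log2 values. They hold 5739 probe sets. The platform annotation gives 5498 of them to 1 gene, and 241 stayed unnamed. The brightest of several probe sets stood for a gene, which left 5449 genes. Each member had 1 probe set.

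In R 4.3.3, limma 3.58.1 fitted a mean per group to all 12 arrays. Tests were two-sided, with a Benjamini-Hochberg adjustment across the 5449 genes and a threshold of 0.05. The methods of the study use a t-test with a ratio limit of 2. The steps were tested on simulated data. The methods state that cultures were divided, and the titles number the arrays. Arrays of a strain with the same number were taken as 1 culture, which the methods do not spell out. Over all genes, the deviations of such pairs from their group means correlated at 0.247 to 0.716. Across other numbers of a strain the correlation was -0.595 to -0.00134. Over the members alone the ranges were -0.0351 to 0.661 and -0.483 to 0.193, which overlap. Deviations cancel out within a group, so the ranges are not independent of each other.

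The members, the gene lists and the choices below were set with earlier results of these data known. In each comparison the rule named up to 8 members per direction among those passing or, where fewer than 4 passed, the 4 with the largest change, then the 3 brightest and 3 dimmest, neighbors in the genome and *MRP8*. Classes of members were assigned from general knowledge after their values had been seen. Alternatives changed the test, the thresholds, the variance model, the scaling, the filter on dim genes, the arrays in the fit and the block. Promoters, proteins and other sequences were not used here. The number of arrays limits the precision.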

Additional observations from a re-analysis of the deposited data

How the results depend on the processing

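The number of members called depended on the test in every comparison with calls, and so did the share of all genes, given for each fit. With CR in WT cells (1 higher, 1 lower, all genes 18.4%), the counts were 2 and 5 by the unadjusted t-test of the methods (19%) and 2 and 5 at an adjusted p under 0.1 (25.1%). They were 0 and 0 by the adjusted t-test (1.6%), with array weights (11.5%), with only the compared groups in the fit (5.96%) and with a ratio limit of 2 in addition (1.69%). Without WT culture 3 none was higher (15.6%), and 3 were lower without dim genes (22%) and with trended, robust variances (19.8%). With the culture as a block, in which the paired parts are compared, they were 2 and 9 (29.9%), with the culture as a random block (correlation 0.413) 2 and 11 (31.3%), and 4 were lower with the replicate number as a block over both strains (22.5%). For CR in *sus1*Δ cells (1.54%) the unadjusted t-test gave 2 higher and 2 lower (19.7%), and array weights gave 1 higher, *MRP8* (10%). With only the compared groups in the fit no member was called there (6.28%).

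For untreated *sus1*Δ against WT cells (1 higher, 9 lower, all genes 21.4%) the unadjusted t-test gave 2 and 17 (30%), the adjusted one 0 and 1 (4.57%). Without WT culture 3, 15 were lower (31.3%). With trended variances (22.6%), array weights (25.1%), the culture as a random block (21.1%) or an adjusted p under 0.1 (30.2%), 2 were higher, and 3 with the replicate number as a block (26.1%). With CR (3 higher, 9 lower, all genes 27.7%) the t-test gave 6 higher unadjusted (33.1%) and 1 and 3 adjusted (11.1%). With only the compared groups 3 were lower (23.2%), and 5 were higher with the number as a block (32.7%) or an adjusted p under 0.1 (36.8%). The ratio limit left 0 in both strain comparisons (2.53% and 2.57%).

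Leaving out 1 array gave 0 to 2 higher and 0 to 5 lower for CR in WT cells, 0 to 2 and 4 to 12 for the untreated and 0 to 5 and 2 to 9 for the treated strain comparison. It gave 0 for CR in *sus1*Δ cells and for the interaction. The block moved no other count by over 1.5 times. Over the named members and alternatives, 1113 results kept their side of the threshold, 42 newly passed, 145 no longer passed and none changed sign. The culture as a fixed block gives no value for a difference between strains, and the t-test and the fit of the compared groups give none for the interaction. The causes of these differences were not tested.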
